A study of Sus scrofa with 22 samples.

Results

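The genes described here are the splicing factors and RNA helicases on a porcine Affymetrix array, measured in blood mononuclear cells of mini pigs. A gene was included if a single-gene probe set carried a symbol beginning with HNRNP, SRSF, SFRS, SF3, SNRP, PRPF, U2AF, LSM, RBM, DDX or DHX, or the symbol SF1 or PPIG. The virus sensors DDX58 and DHX58 and any DDX3Y were left out. This gave 110 genes of the 6765 with a single-gene probe set, and 1 probe set, the brightest over all 22 arrays, stood for each. The rule uses names and mean brightness and no difference between conditions, but it was set with earlier results of these data known. Of these, 107 were bright enough to be tested. The germ cell helicases DDX4 and DDX25 and the SR protein SRSF12 were not.

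Each array holds the RNA of mononuclear cells from 1 pig, isolated from heparinised blood on a density gradient. There were 4 conditions. The resveratrol group ate a chow with 20% beef tallow for 9 months and received resveratrol, a plant polyphenol, at a daily 8 mg per kg of body weight (2 females, 2 males). The high-fat group ate the same 20% chow without it for 9 months (2 females, 2 males). The control group ate a chow with 5% beef tallow for 9 months (2 females, 2 males). The time 0 group was bled at the beginning of the experiment (5 females, 5 males). Pigs 8 and 25 were measured at time 0 and again on the control diet at 9 months, and the ages of the animals are not given in the sources used here. The study asked what the high-fat diet changes in these cells and whether resveratrol modifies that change.

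Introns are removed from pre-mRNA by the spliceosome, which is built from small nuclear ribonucleoproteins (snRNPs). Sm proteins (some of the SNRP genes) and LSM proteins form rings on the small nuclear RNAs, and other SNRP genes encode proteins of single snRNPs. SF1 and U2AF mark the end of the intron, and the SF3 and PRPF proteins belong to the later complexes. SR proteins (SRSF) mostly promote the use of an exon and the hnRNPs often oppose it. DEAD-box and DEAH-box helicases (DDX, DHX) remodel RNA in splicing, export, ribosome assembly, translation and decay. In lymphocytes and monocytes, alternative splicing of surface receptors and the stability of cytokine mRNAs depend on several of these proteins.

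The cells carried the markers of the labelled fraction. The mean over 12 T cell markers was between 9.90 and 10.76 on the log2 intensity scale in all 22 arrays, and that over 12 monocyte and dendritic cell markers between 8.64 and 9.51. The difference of the monocyte mean minus the T cell mean ranged from -1.77 to -0.48 with resveratrol, -1.72 to -1.01 on the high-fat diet, -0.94 to -0.58 on the control diet at 9 months and -2.05 to -0.98 at time 0. In a mixed cell sample, fewer cells of a type and less RNA per cell cannot be told apart. The poly-A spike-in controls, added to the RNA before labelling, also differed: their mean was 7.58 to 9.15 at time 0 and 8.39 to 10.61 at 9 months. A higher and a lower spike-in set were cut at the largest gap within each time, and time, age and array handling cannot be told apart. The signal of the 3' end of actin minus that of its 5' end is a sign of RNA quality. It averaged 1.95 ± 0.65 (SD, n = 4) in control arrays of 9 months and 1.42 ± 0.50 (SD, n = 10) at time 0. On the high-fat diet it averaged 2.36 ± 0.56 (SD, n = 4), and with resveratrol 1.86 ± 0.67 (SD, n = 4).

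Between the 2 times, 47 of the 107 tested members changed (43.9%), against 35.0% of all 17240 probe sets tested. These calls compare the control diet at 9 months with time 0, in a limma fit with Benjamini-Hochberg adjusted p under 0.05. Of the members, 18 rose, against 15.8% of all probe sets, and 29 fell, against 19.1%. The counts by family below are to be read against the same shares, and differences between families were not tested. The median member difference was -0.06 on the log2 scale, and that over all probe sets -0.0064. The groups did not overlap for 11 members that were higher, against 6.54% of all probe sets, and for 18 that were lower, against 8.64%. The median size of the 47 changes was 0.39 on the log2 scale, and 10 of them were at least 1.5-fold.

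**Figure D1:**
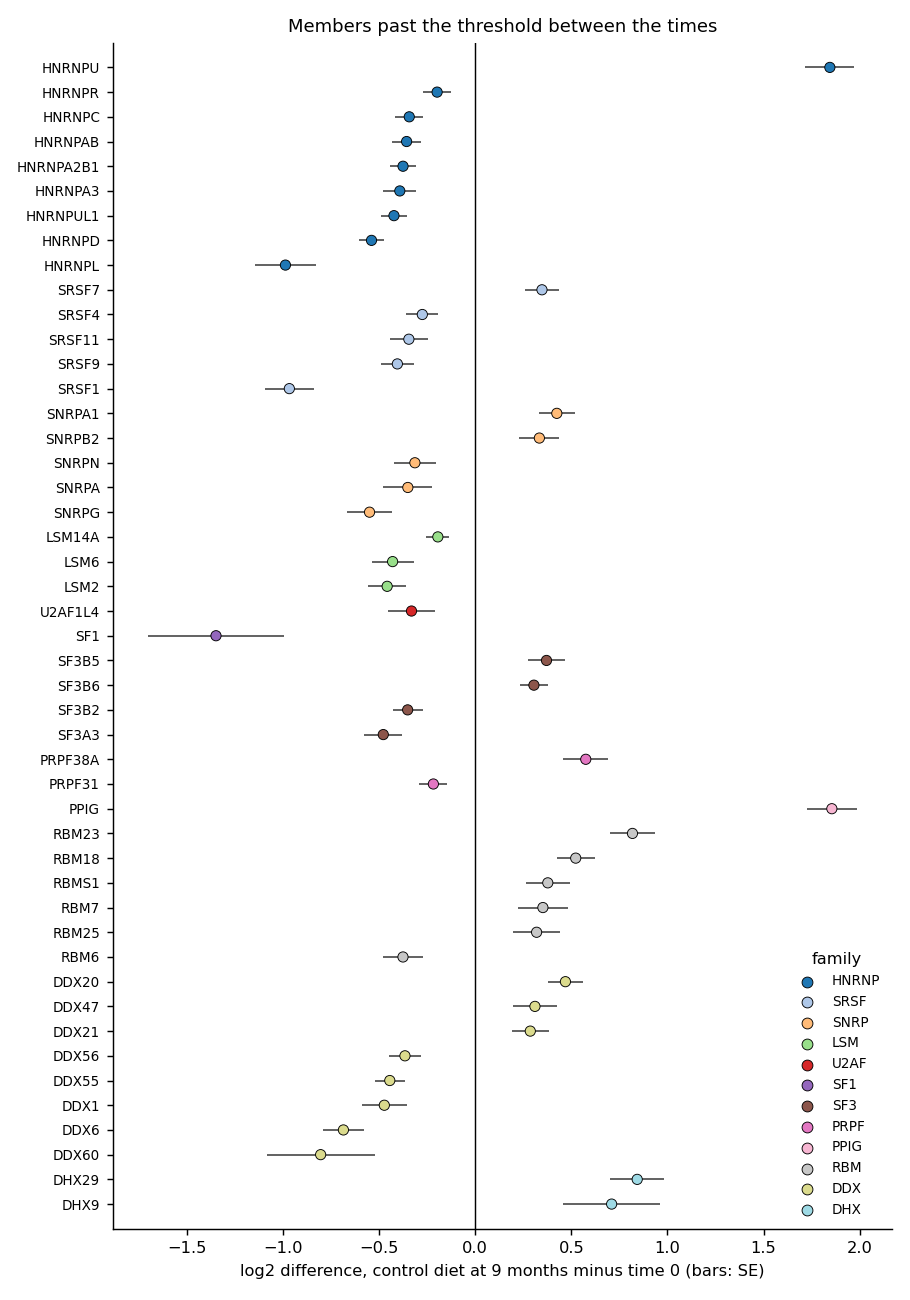
Log2 difference (horizontal axis) of each of the 47 members past the threshold, control diet at 9 months (4 arrays) minus time 0 (10 arrays). Bars are standard errors and colours the gene families. HNRNPU and PPIG lie alone at the right, near 1.84 and 1.86, while 8 of the 9 hnRNP genes shown and all 3 LSM genes shown lie to the left of 0.

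HNRNPU and PPIG had the smallest adjusted p of the members. HNRNPU, a protein that binds RNA and chromatin in the nucleus, read 7.47 and 7.63 in females and 6.95 and 7.61 in males on the control diet at 9 months. At time 0 its 10 arrays ran from 5.08 to 5.82, with a median of 5.68. These time 0 values lie close to the log2 cut of 5 used for testing and below the array medians of time 0 (6.21 to 6.25). The 2 times are more than a full log2 unit apart, with a difference of 1.84 (SE 0.13, adjusted p = 5.2e-09). PPIG is a cyclophilin, a prolyl isomerase with an SR-like tail. It read 8.56 and 8.45 in females and 8.25 and 8.78 in males on the control diet at 9 months, against 6.15 to 6.98 (median 6.69) at time 0. The difference was 1.86 (SE 0.13, adjusted p = 7.0e-09). Both genes stood at the 9-month level on the other diets too: HNRNPU read 7.44 to 7.60 with resveratrol and 7.19 to 7.62 on the high-fat diet, and PPIG 8.45 to 8.66 and 7.90 to 8.60.

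**Figure D2:**
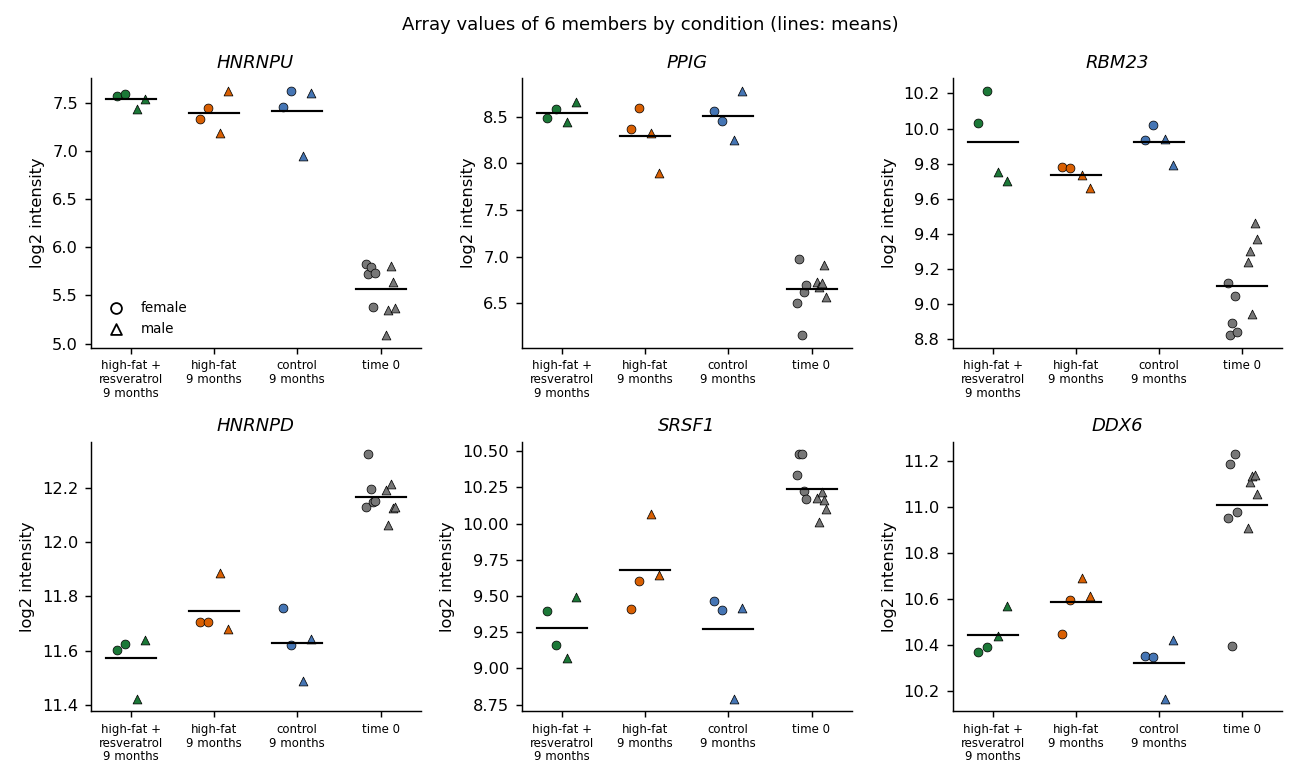
Log2 intensity (vertical axis) in each array for 6 members, by condition from left to right: resveratrol, high-fat and control diet at 9 months, and time 0. Circles are females, triangles males and lines group means. HNRNPU, PPIG and RBM23 are higher in all 12 arrays of 9 months than at time 0, HNRNPD lower in all 12, and for DDX6 a single time 0 female (10.40) lies among the 9-month arrays.

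Of the 17 hnRNP genes, which package pre-mRNA and steer exon choice, 8 fell with time and HNRNPU alone rose. The other 8 did not pass the test, and the family's median difference was -0.20. HNRNPD (AUF1), which binds AU-rich elements and directs the decay of mRNAs, read 11.76 and 11.62 in females and 11.49 and 11.64 in males on the control diet at 9 months. At time 0 it read 12.06 to 12.32 (median 12.15). The groups did not overlap and the difference was -0.54 (SE 0.06, adjusted p = 4.6e-06). HNRNPL, known in human and mouse T cells for repressing exons of the phosphatase CD45, read 6.89 and 6.31 in females and 6.89 and 6.38 in males on the control diet at 9 months, against 6.86 to 8.00 (median 7.67) at time 0. Time 0 female 6 alone overlapped the 9-month arrays, and the difference was -0.99 (SE 0.16, adjusted p = 1.0e-04). The smaller falls were those of HNRNPUL1 (-0.42), HNRNPA3 (-0.39), HNRNPA2B1 (-0.38), HNRNPAB (-0.36), HNRNPC (-0.34) and HNRNPR (-0.20).

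SR proteins bind exonic enhancers and recruit the spliceosome, and here 4 of the 10 tested fell and 1 rose. SRSF1, a founding member of the family, read 9.47 and 9.41 in females and 8.79 and 9.41 in males on the control diet at 9 months, against 10.01 to 10.48 (median 10.20) at time 0. All 4 control arrays lay below all 10 time 0 arrays, with a difference of -0.97 (SE 0.13, adjusted p = 1.1e-05). SRSF9 (-0.41), SRSF11 (-0.35) and SRSF4 (-0.28) also fell, and SRSF7 rose (0.35). SRSF3, SRSF5 and SRSF6 were among the 5 that did not pass.

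Among the snRNP proteins, 3 of 10 SNRP genes fell and 2 rose. SNRPG (-0.55) and SNRPN (-0.31), both Sm ring proteins, and SNRPA (-0.35), the U1 protein that binds the RNA stem loop, were lower on the control diet at 9 months. SNRPA1 (0.42) and SNRPB2 (0.33), a pair of proteins that bind the U2 RNA together, were higher. All 6 LSM differences were below 0, with a median of -0.31, and 3 passed: LSM2 (-0.46) and LSM6 (-0.43), subunits of the rings on U6 RNA and on decaying mRNA, and LSM14A (-0.19), a P-body protein. The U2 subunits of the SF3 family split, with SF3A3 (-0.48) and SF3B2 (-0.35) lower and SF3B5 (0.37) and SF3B6 (0.31) higher.

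SF1, which binds the branch point before U2 does, had the lowest difference of the members in this fit and also the largest residual spread. It read 7.96 and 10.44 in females and 9.79 and 9.99 in males on the control diet at 9 months, against 10.23 to 11.26 (median 11.05) at time 0. Control female 18 was the low array, and female 8 overlapped time 0. The difference was -1.35 (SE 0.35, adjusted p = 0.0056). The call was lost with a monocyte minus T cell marker covariate (-0.72, adjusted p = 0.23) and in arrays of close spike-in level (-1.44, adjusted p = 0.28). U2AF1L4, a relative of the small U2AF subunit, fell by 0.33 on the log2 scale. In the PRPF family, PRPF38A (0.57), a component of the precatalytic spliceosome, rose, PRPF31 (-0.22), a U4/U6 protein, fell, and the other 7 did not pass.

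Of the 22 RNA-binding motif genes tested, 5 rose and 1 fell, beside 15.8% of all probe sets that rose and 19.1% that fell. RBM23, a relative of the splicing regulator RBM39, read 9.93 and 10.02 in females and 9.94 and 9.79 in males on the control diet at 9 months. It read 8.82 to 9.46 (median 9.08) at time 0, without overlap, and the difference was 0.82 (SE 0.12, adjusted p = 2.9e-05). RBM18 (0.52), RBMS1 (0.38), RBM7 (0.35), a subunit of the nuclear exosome targeting complex, and RBM25 (0.32), a U1-associated regulator of apoptotic exons, also rose. RBM6 (-0.38) fell.

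The helicases moved both ways. Of 18 DDX genes, 5 fell and 3 rose, and of 4 DHX genes, 2 rose. Over all probe sets, 15.8% rose and 19.1% fell. DDX6, which represses translation and promotes decapping in P-bodies, read 10.35 and 10.35 in females and 10.17 and 10.42 in males on the control diet at 9 months, against 10.40 to 11.23 (median 11.08) at time 0. Time 0 female 10 was the only overlapping array, and the difference was -0.69 (SE 0.11, adjusted p = 7.1e-05). DDX1 (-0.47), DDX55 (-0.44) and DDX56 (-0.37) fell as well, as did the interferon-induced DDX60 (-0.80), beside 15 of 17 interferon-stimulated genes with differences below 0 (2 called, median -0.52). DDX20 (0.47), the Gemin3 subunit of the SMN complex that assembles snRNPs, rose, as did the nucleolar helicases DDX47 (0.31) and DDX21 (0.29). DHX29, which helps ribosomes scan structured leaders, read 7.93 and 7.96 in females and 7.88 and 7.99 in males on the control diet at 9 months, against 6.34 to 7.51 (median 7.14) at time 0. The difference was 0.84 (SE 0.14, adjusted p = 1.5e-04). DHX9 (RNA helicase A) also rose (0.71, SE 0.25, adjusted p = 0.035), with a wide spread at time 0.

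Most, but not all, called members with more than 1 tested probe set moved the same way on each. There were 17 such genes with 22 further probe sets, of which 17 had the sign of the one used and 5 the opposite sign. Only 10 of the 22 had the same sign and passed, and 1 passed with the opposite sign. The other 30 called members rest on 1 tested probe set each. All 3 probe sets of SRSF1 fell (-0.97, -1.01 and -1.64), both of HNRNPD fell (-0.54 and -0.53) and both of SF1 fell (-1.35 and -0.84). SRSF11 was the exception that passed both ways: beside the fall of -0.35, another of its 5 probe sets rose by 0.76 (adjusted p = 2.2e-04). HNRNPA2B1, SNRPA1 and SNRPG each had a further probe set of opposite sign that did not pass (0.24, -0.41 and 0.33). Direction for these 4 genes therefore depends on the probe set, and the part of the transcript that each probe set reads was not analysed here.

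**Figure D3:**
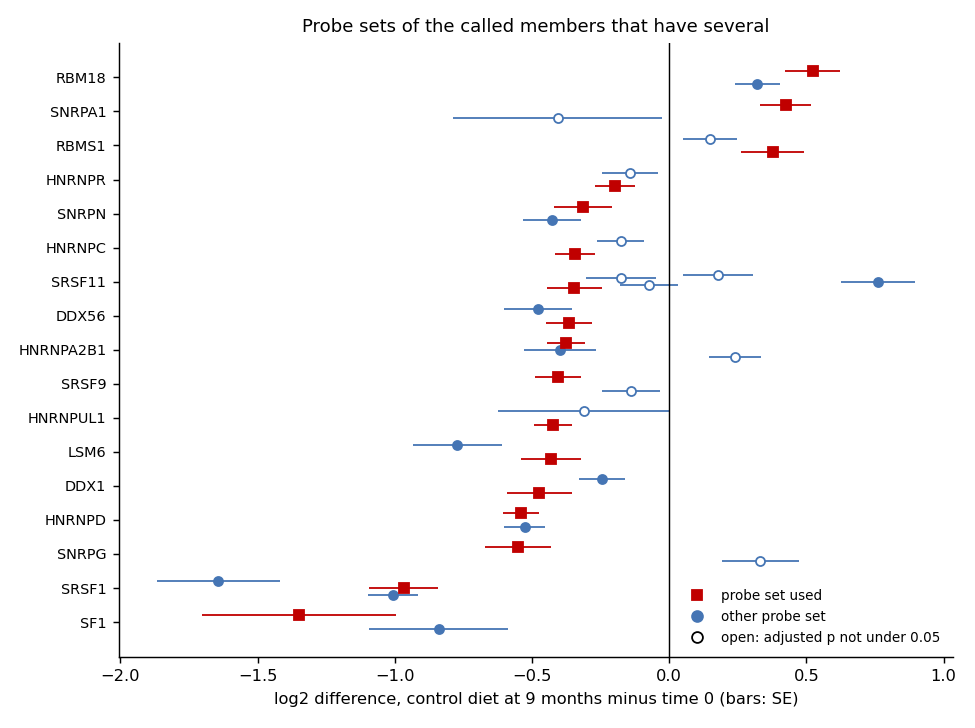
Log2 difference (horizontal axis, bars are standard errors) on every tested probe set of the 17 called members that have several, control diet at 9 months minus time 0. Red squares are the probe sets used and blue circles the others, and open symbols have an adjusted p not under 0.05. SRSF1, HNRNPD and SF1 lie left of 0 on all their probe sets, and SRSF11 has one at 0.76.

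Markers of other cells and the spike-in level moved with the same comparison. T cell markers were lower on the control diet at 9 months for 12 of 12 genes (7 called, median -0.52), and their list mean was 10.06 to 10.23 there, against 10.37 to 10.76 at time 0. Monocyte markers were higher for 10 of 12 (2 called, median 0.24), with list means of 9.22 to 9.51 and 8.71 to 9.40. B cell markers were lower for 2 of 2 genes (1 called, median -0.55), with list means of 9.24 to 9.73 on the control diet at 9 months and 9.52 to 10.35 at time 0. NK and cytotoxic markers were lower for 4 of 4 (2 called, median -0.53), with list means of 9.34 to 10.00 and 9.83 to 10.45. Both red cell markers fell, and no platelet or granulocyte marker passed. With the monocyte minus T cell difference as a covariate, 38 members passed (35.5%, beside 27.6% of all probe sets in that fit), 23 higher and 15 lower. Of the 47 calls 30 remained, and the sign of all 47 was kept. HNRNPU was called under all 31 alternatives run (1.68 to 1.98), as were PPIG (1.76 to 2.18), SRSF1 (-1.10 to -0.81) and RBM23 (0.76 to 0.98). The comparison restricted to arrays of close spike-in level held 3 control arrays and 2 time 0 females. Control male 16 was its only male, so the sex term of the model took up that array. The difference therefore rests on 2 control females against 2 time 0 females. In that fit 12 members passed (11.2%, beside 10.2% of all probe sets) and 10 of the 47 calls remained. There HNRNPD (-0.47, adjusted p = 0.089) and DDX6 (-0.32, adjusted p = 0.36) were no longer called, and again the sign of all 47 was kept.

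Genes of the same processes outside the list had calls in both directions, to be read against 15.8% of all probe sets higher and 19.1% lower. Of 57 other spliceosome genes and splicing regulators, 10 rose and 16 fell. The STAR protein KHDRBS1 (Sam68) rose by 1.23 (SE 0.09, adjusted p = 1.8e-08), and the mRNA stabiliser ELAVL1 (HuR) by 0.97. SNRNP48 (0.81), a minor spliceosome protein, SLU7 (0.56) and the SR protein kinase CLK1 (0.52) rose, while the isomerase-like proteins PPWD1 (-0.74) and CWC27 (-0.68) fell. Of 39 genes for exon junctions, export and mRNA decay, 9 rose and 12 fell, with THOC5 (-0.79) of the export complex and CLP1 (-0.72) lower and the exosome subunit EXOSC9 (0.57) higher. Among 7 further RNA helicases, 3 rose and 2 fell, with EIF4A1 at 0.49 and MOV10 at -0.64. None of these 3 lists had a called gene in any comparison of diets.

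The high-fat diet changed no member past the threshold. Against the control diet at 9 months, 0 of 107 members and 0% of all probe sets passed, and the smallest adjusted p of a member was 0.34. At an unadjusted p under 0.05, 8 members were higher, against 3.89% of all probe sets, and 1 was lower, against 5.17%. Together that is 9 of 107 (8.41%), beside 9.06% of all probe sets. The differences leaned upward: 78 of 107 (72.9%) were above 0, against 48.8% of all probe sets, with medians of 0.08 and -0.0045. By family, 16 of 17 hnRNPs (median 0.13), 9 of 10 SR proteins (median 0.15), 8 of 10 SNRP genes (median 0.18), 17 of 22 RBM genes (median 0.04) and 11 of 18 DDX genes (median 0.07) were above 0. Differences between families were not tested. Groups did not overlap for 7 members that were higher, against 2.08% of all probe sets, and for 1 that was lower, against 2.97%.

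HNRNPAB, which binds RNA and single-stranded DNA, had the smallest p. It read 10.69 and 10.81 in females and 11.07 and 10.89 in males on the high-fat diet, against 10.64 and 10.44 in females and 10.60 and 10.65 in males on the control diet. All 4 high-fat arrays lay above all 4 control arrays, by 0.28 (SE 0.09, adjusted p = 0.34). HNRNPA2B1, a reader of RNA in splicing and transport, read 12.30, 12.34, 12.54 and 12.36 on the high-fat diet and 12.25, 12.22, 11.97 and 12.23 on the control diet, females before males. These groups did not overlap either, at 0.22 (SE 0.08, adjusted p = 0.42), and the same was seen for HNRNPH2 (0.29), SNRPA1 (0.23) and DDX6 (0.26). SRSF1 read 9.41 and 9.60 in females and 10.07 and 9.65 in males on the high-fat diet, against 9.47 and 9.41 in females and 8.79 and 9.41 in males on the control diet. Its females overlapped and its males did not, and the difference was 0.41 (SE 0.15, adjusted p = 0.40), positive on all 3 of its probe sets.

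On the lower side, DHX30, a helicase of mitochondrial RNA granules, read 7.77 and 8.03 in females and 7.58 and 7.67 in males on the high-fat diet, against 7.99 and 8.05 in females and 8.10 and 8.01 in males on the control diet. A single high-fat female overlapped the control arrays, and the difference was -0.27 (SE 0.13, adjusted p = 0.55). SF3A1, a U2 subunit, read 9.87, 9.67, 9.39 and 9.50 on the high-fat diet and 10.10, 9.91, 10.26 and 9.76 on the control diet, females before males, a difference of -0.40 (SE 0.20, adjusted p = 0.57). DDX39B (UAP56), which couples splicing to export, read 10.73, 10.70, 10.78 and 10.47 on the high-fat diet, against 11.08, 10.76, 10.96 and 10.96 on the control diet. Its difference of -0.27 (SE 0.15, adjusted p = 0.62) turned to 0.20 when the median of its probe sets was used. RBM23, at -0.18, was the member whose high-fat arrays all lay below the control arrays.

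**Figure D4:**
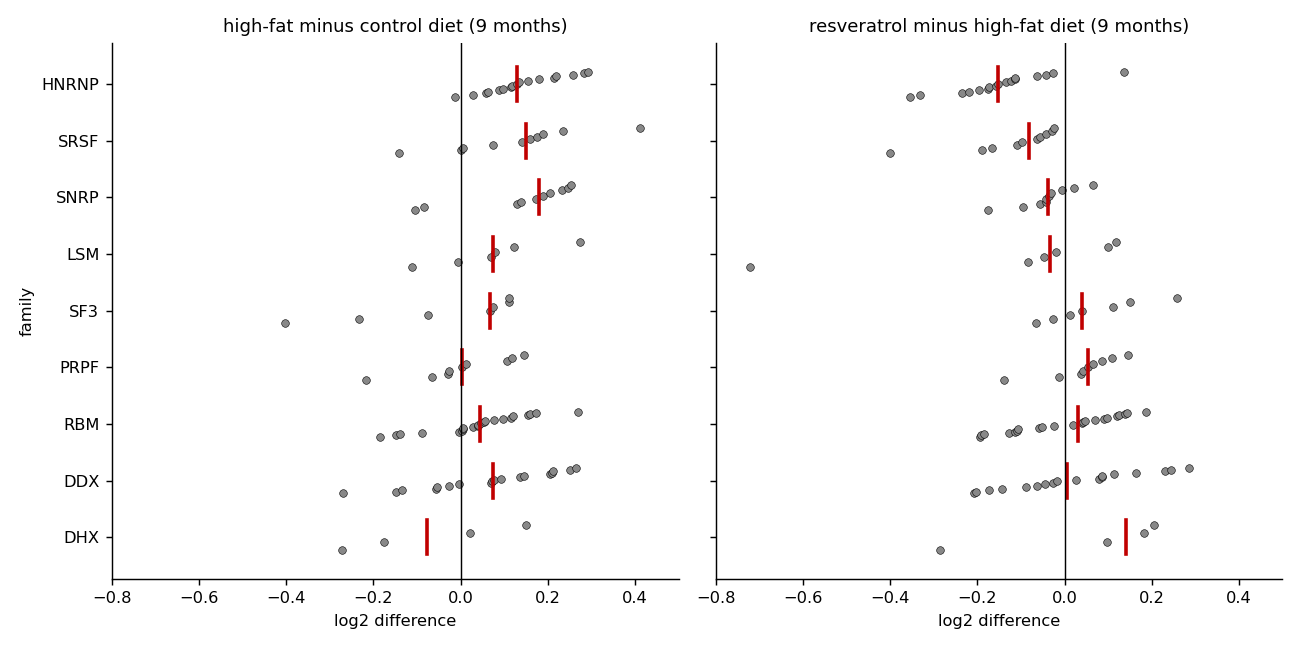
Log2 difference (horizontal axis) of every tested member in 9 families: high-fat minus control diet (left) and resveratrol minus high-fat diet (right), both at 9 months with 4 arrays a group. Points are genes and red bars family medians. The hnRNP median is 0.13 on the left and -0.15 on the right. Both panels use the same 4 high-fat arrays, and no point passed the threshold.

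Cell type markers moved in this comparison as well. Monocyte markers were lower on the high-fat diet for 11 of 12 genes (median -0.50, 0 called), with list means of 8.65 to 9.08, against 9.22 to 9.51 on the control diet. With the monocyte minus T cell difference as a covariate, 53 of 107 members were above 0 and 54 below, with a median of -0.0016. The hnRNPs then had 13 of 17 above 0 (median 0.14), the SR proteins 7 of 10 (median 0.13) and the SNRP genes 7 of 10 (median 0.05). One library weighed on the lean: control male 16 had the lowest member mean of all arrays (9.45), and without it 64 of 107 members, 14 of 17 hnRNPs and 6 of 10 SR proteins were above 0, 1 member was higher and 1 lower at an unadjusted p under 0.05, and the median was 0.04. The count of higher members was 5 without high-fat female 30 or male 26, and 12 without control female 8 or high-fat female 27. For fits with an array left out, the share of all probe sets at this unadjusted cut was not computed. Both high-fat females belong to the higher spike-in set and both control females to the lower, so that in females diet and spike-in set cannot be told apart. The lower set holds 1 high-fat array against 3 control arrays, and the higher set 3 against 1. The medians within them, 0.09 and 0.06, each rest on 1 pig in an arm.

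**Figure D5:**
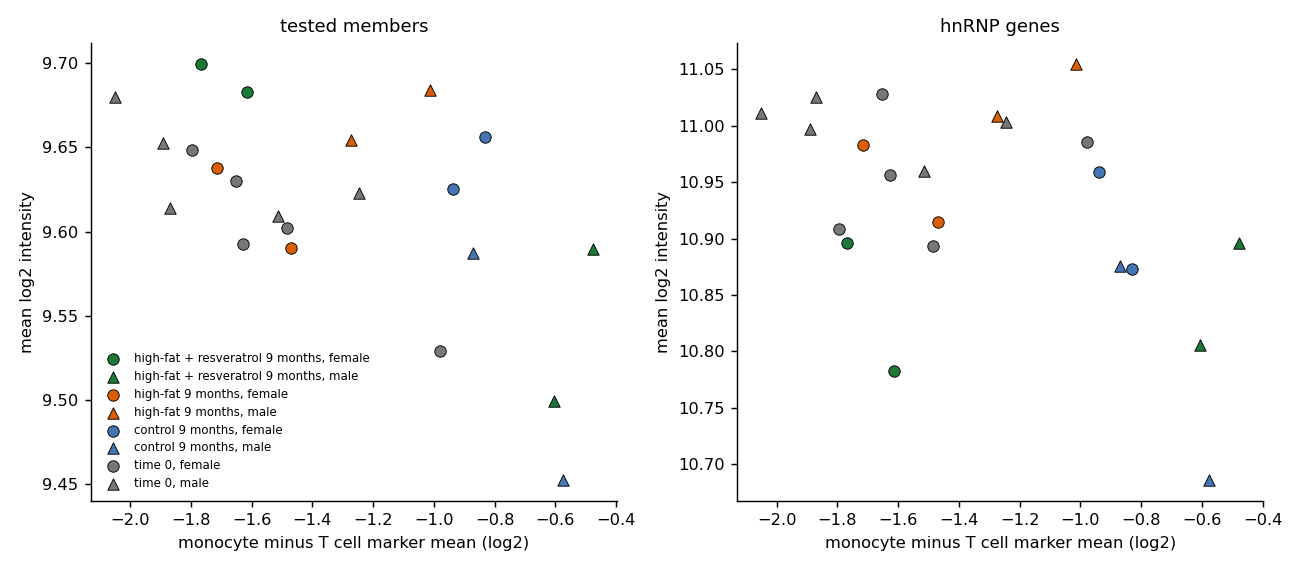
Mean log2 intensity (vertical axis) of the 107 tested members (left) and the 17 hnRNP genes (right) in each array, against the mean of monocyte markers minus that of T cell markers (horizontal axis, log2). Colours are conditions, circles females and triangles males. Control male 16 (9.45) is lowest on the left, resveratrol female 21 (9.70) highest, and the high-fat males are highest among the 9-month arrays on the right.

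Resveratrol on top of the high-fat diet also changed no member past the threshold (0 of 107, beside 0% of all probe sets), and the smallest adjusted p was 0.73. At an unadjusted p under 0.05, 12 members were lower, against 3.42% of all probe sets, and 0 were higher, against 3.21%. Differences were below 0 for 63 of 107, with a median of -0.03, while 54.2% of all probe sets were above 0. Of the 17 hnRNPs 16 were below 0 (median -0.15), as were 10 of 10 SR proteins (median -0.08). The PRPF (7 of 9 above 0, median 0.05) and SF3 genes (5 of 7, median 0.04) were not. Groups did not overlap for 6 members that were lower, against 1.97% of all probe sets, and for 0 that were higher, against 1.84%. The same 4 high-fat arrays serve in the comparison with the control diet.

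HNRNPH2, which binds runs of G, read 9.89 and 9.76 in females and 9.79 and 10.27 in males with resveratrol, against 10.35 and 10.25 in females and 10.28 and 10.24 in males on the high-fat diet. Resveratrol male 5 alone overlapped, and the difference was -0.35 (SE 0.12, adjusted p = 0.73). HNRNPDL, a relative of HNRNPD, read 12.19, 12.28, 12.30 and 12.32 with resveratrol, against 12.39, 12.51, 12.41 and 12.67 on the high-fat diet, females before males. HNRNPF, a further G-run binder, read 12.04, 11.99, 12.10 and 12.11 with resveratrol, against 12.28, 12.24, 12.17 and 12.33 on the high-fat diet. Neither of these overlapped, and the differences were -0.22 (SE 0.08) and -0.20 (SE 0.07), each with an adjusted p of 0.73. The remaining members without overlap were SRSF3 (-0.19), HNRNPA2B1 (-0.17), HNRNPD (-0.17) and HNRNPUL1 (-0.15). SRSF1 (-0.40, SE 0.15) and HNRNPH1 (-0.33, SE 0.14) had larger differences with overlap. The lowest difference of all members was that of LSM3, a subunit of the U6 ring, which read 9.08, 8.41, 10.12 and 9.20 with resveratrol, against 8.85, 9.89, 11.03 and 9.92 on the high-fat diet, females before males. These overlapped, at -0.72 (SE 0.34, adjusted p = 0.75). It was chosen after its values were seen.

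Among the positive differences the smallest p was that of DDX11, a DNA helicase of sister chromatid cohesion, which read 6.53 and 6.82 in females and 6.28 and 6.31 in males with resveratrol, against 5.93 and 6.36 in females and 6.25 and 6.26 in males on the high-fat diet (0.29, SE 0.15, adjusted p = 0.78). DDX49, a nucleolar helicase, read 7.88, 7.90, 7.29 and 7.34 with resveratrol and 7.38, 7.54, 7.25 and 7.31 on the high-fat diet, females before males. DHX30 read 8.29, 8.43, 7.52 and 7.64 with resveratrol and 7.77, 8.03, 7.58 and 7.67 on the high-fat diet. For DDX49 and DHX30 both resveratrol females lay above both high-fat females, while the males overlapped.

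Monocyte markers were higher with resveratrol than on the high-fat diet for 11 of 12 genes (median 0.15, 0 called), with list means of 8.64 to 9.43 and 8.65 to 9.08. With the marker difference as a covariate, 59 of 107 members were above 0, and the hnRNPs still had 15 of 17 below 0 (median -0.16). Without resveratrol male 4, 54 of 107 members were above 0, the median was 0.0035 and 4 members were lower at an unadjusted p under 0.05, with 16 of 17 hnRNPs and 6 of 10 SR proteins below 0, and 4 were higher. The count of lower members was 5 without high-fat male 23, 6 without high-fat male 26, 7 without high-fat female 30 and 8 without resveratrol female 22. It was 10 without resveratrol female 21 or male 5, and 14 without high-fat female 27. The share of all probe sets was not computed in these fits, so the counts cannot be set against it. Of the resveratrol arrays female 21 alone belongs to the higher spike-in set, and of the high-fat arrays male 23 alone to the lower. The spike-in mean averaged 9.08 with resveratrol and 9.91 on the high-fat diet. Diet and spike-in set cannot be fully told apart in this comparison either.

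Resveratrol against the control diet gave 0 calls among the members and 0% of all probe sets, with every adjusted p at 1.00. At an unadjusted p under 0.05, 1 member was higher, against 1.95% of all probe sets, and 0 were lower, against 1.90%. Of 107 members 66 were above 0, against 51.8%, with a median of 0.02. Without control male 16, 54 were above 0 (median 0.0019), and without resveratrol male 4, 79 were (median 0.07). SF3B5, the smallest U2 SF3B subunit, was the 1 member. It read 11.47 and 11.43 in females and 11.05 and 10.88 in males with resveratrol, against 10.99 and 11.07 in females and 10.97 and 10.77 in males on the control diet. Its females did not overlap, and the difference was 0.26 (SE 0.12). RBM8A (Y14), a core protein of the exon junction complex, read 10.93, 10.84, 10.77 and 10.69 with resveratrol and 10.65, 10.83, 10.45 and 10.51 on the control diet (0.20, SE 0.11). RBM7 had the smallest p among the negative differences, at 10.28, 10.31, 10.38 and 10.82 with resveratrol and 10.73, 10.86, 10.50 and 10.79 on the control diet (-0.27, SE 0.16). RBM4 (0.19), SRSF11 (-0.20) and HNRNPH1 (-0.20) followed. A test of any difference among the 3 diets gave 7 of 107 members at an unadjusted p under 0.05, beside 7.01% of all probe sets, and 0 after adjustment.

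No member passed the test of a sex difference in a diet effect, and the values by sex are a description. For the high-fat diet against the control diet, 50 of 107 members and 12 of 17 hnRNPs were above 0 in females (median of members -0.01). In males 79 of 107 members and 17 of 17 hnRNPs were above 0 (median 0.18). Of all probe sets 48.6% were above 0 in females and 48.1% in males. For resveratrol against the high-fat diet, 71 of 107 members were above 0 in females (median 0.09), including 10 of 10 SNRP genes. In males 88 of 107 were below 0 (median -0.13), including 10 of 10 SR and 10 of 10 SNRP genes. Of all probe sets 55.9% were above 0 in females and 49% in males. The difference of the resveratrol effect, female minus male, was above 0 for 89 of 107 members, against 55.1% of all probe sets (median 0.21). That of the high-fat effect was below 0 for 80 of 107 (median -0.19), while 49.3% of all probe sets were above 0. In these tests of the sex difference 0 members passed, beside 0.0116% of all probe sets for resveratrol and 0.00580% for the high-fat diet. The smallest adjusted p of a member was 0.84 for the resveratrol effect and 0.40 for the high-fat effect, with 2 arrays in each group of diet and sex. The monocyte minus T cell difference was -1.77 and -1.61 in resveratrol females and -0.60 and -0.48 in resveratrol males, and its part in these values was not tested by sex.

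At time 0, 1 of 107 members differed between the sexes, beside 1.07% of all probe sets. At an unadjusted p under 0.05, 10 members were lower in females, against 7.35% of all probe sets, and 3 were higher, against 9.08%. Differences, female minus male, were above 0 for 41 members, against 51.9%, with a median of -0.04. RBM48, a minor spliceosome protein, read 7.07 to 7.53 in 5 females and 7.70 to 7.80 in 5 males. The sexes did not overlap, and the difference was -0.40 (SE 0.09, adjusted p = 0.043). The call was lost under 12 of 16 alternatives, including those without female 6, 8 or 10 or without any 1 of the 5 males. Females 6 and 10 form the higher spike-in set of time 0, and without both of them the difference was -0.28 (adjusted p = 0.27). PRPF38A read 9.14 to 9.36 in females and 9.26 to 9.79 in males (-0.36, SE 0.09, adjusted p = 0.057), and RBM23 read 8.82 to 9.12 in females and 8.94 to 9.46 in males (-0.32, SE 0.09, adjusted p = 0.088). On the positive side U2AF1L4 read 8.35 to 9.09 in females and 8.11 to 8.49 in males (0.37, SE 0.12, adjusted p = 0.15), followed by SF3A3 (0.25) and SNRPA (0.28). All 17 interferon-stimulated genes had positive differences in the same comparison (median 0.78, 0 called). DDX60, which belongs to that response, had a difference of 0.47 (adjusted p = 0.34).

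The spread between pigs of a condition differed widely among members. The residual SD of the fit had a median of 0.17 on the log2 scale over the 107 members, at the 40.7th percentile of all probe sets tested at the median. HNRNPK (0.064), LSM14A (0.071) and HNRNPF (0.077) varied least. The most variable were SF1 (0.65, above 98.7% of probe sets), DDX60 (0.52), LSM3 (0.52), PRPF38B (0.47) and DHX9 (0.47). For SF1 the 4 resveratrol arrays read 10.28, 10.86, 9.01 and 9.24, the high-fat arrays 9.46, 9.68, 8.84 and 9.74 and the control arrays 7.96, 10.44, 9.79 and 9.99, females before males, so that no diet group was apart from the others.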

How the data were processed

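The authors deposited 1 linear intensity per probe set and array, made with GCOS, RMA and Affymetrix Expression Console 1.1, per the submitters' processing notes. RMA summarises several probes per set and normalizes arrays together, so levels of different genes cannot be compared. Per the labels' protocols, 4 µg of total RNA was labelled per array. Here log2 was taken after a floor of 1 (no value was floored), and 124 control probe sets were set aside. Of 23999 probe sets, 10069 had 1 symbol in the platform annotation, 198 several and 13732 none. All 110 member symbols were the same in a table of pig genes (Sscrofa11.1 assembly) that served for names only. A probe set was tested if log2 was above 5 in at least 2 arrays (17240 sets, 71.8%). Limma 3.58.1 in R 4.3.3 was used, with statmod 1.5.0 for blocks, two-sided moderated tests and Benjamini-Hochberg adjustment over all sets tested, at 0.05. Diets and times were compared in 22 arrays in a model of condition plus sex, and the sexes with 8 group means. Each sample is 1 array, and p-values measure the spread between pigs and arrays together, which the number of arrays limits. The code was tested on simulated data.

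Named members were the 10 smallest p in each direction of a comparison, with SF1 and PPIG added in the comparisons of conditions. Others called between the times were named to complete a family's count, after their values were seen, as were SRSF11's probe sets and the genes outside the list, whose values are examples of small p. The members and lists were chosen with earlier results of these data known. Alternatives covered model terms, filters, normalization, floor, probe set choice, markers, spike-in level, actin and leaving out each array. No sequence is printed, as no sequence table was used here.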

Additional observations from a re-analysis of the deposited data

Results flagged for a closer look

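In 15 of 248 sets (62 named genes in 4 conditions), 1 array lay farther from the rest of its group than Dixon's 95% limit allows. Chance alone flags about 1 in 20 such sets, and arrays of 1 RNA are not independent across genes. Time 0 female 10 accounted for 6 of them: it was lowest for DDX6 (10.40), DHX29 (6.34), HNRNPDL (12.12) and RBM18 (8.94), and highest for DDX60 (7.58) and HNRNPC (11.70). Control male 16 accounted for 4 and was lowest each time, for DDX20 (9.25), HNRNPA2B1 (11.97), SNRPF (7.87) and SRSF1 (8.79). High-fat male 23 was highest for HNRNPD (11.88) and SNRPF (8.79), and high-fat male 26 for SRSF3 (12.54). High-fat female 27 was lowest for DHX15 (10.44), and resveratrol male 4 for U2AF1L4 (8.25). The members with calls between the times numbered 45 without time 0 female 10 and 48 without control male 16. The shares of all probe sets called in those fits are not given here.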

How the results depend on the processing

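No member was called between diets under any of the 24 alternatives run for each comparison, with 0 to 68 probe sets called for the high-fat diet. Between the times, 31 alternatives gave 12 (11.2%) to 66 (61.7%) called members, as the count over all probe sets ran from 1766 (10.2%) to 8551 (49.6%). The lowest, 12, came from the arrays of close spike-in level, where the difference rests on 2 control females against 2 time 0 females. The highest came from the mean of all 3 diets. Leaving out each array gave 40 to 48, and with the pig as a replicate block the count was 47, of which 46 were the same genes. That block rests on the 2 pigs measured at both times, whose residuals correlated at -0.10 and -0.07. For the fits with the block or with an array left out, the share of all probe sets called is not given here. With the marker covariate the median between the times moved to 0.026 and that for the high-fat diet to -0.0016. The call between the sexes fell to 0 without a filter, with the marker covariate, in the 10 arrays of time 0 alone and without its higher spike-in set. It rose to 2 with the stricter filter or quantile normalization, and ran from 0 to 2 when an array was left out. Over these 16 alternatives the count over all probe sets ran from 28 to 395.

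Single uncalled genes turned sign: SF1 for the high-fat diet became 0.10 with array weights, 0.018 with the actin covariate, 0.19 without control female 8, 0.055 without control male 25 and 0.080 without high-fat male 23 (range -0.69 to 0.19 over arrays left out). SF1 for resveratrol against the control diet became -0.28 without control female 18 and -0.044 without resveratrol female 22 (range -0.28 to 0.61). PPIG in that comparison became -0.11 with array weights, -0.061 without control male 16 and -0.011 without resveratrol male 5 (range -0.061 to 0.13), and DDX39B for the high-fat diet 0.20 with the median of its probe sets. The cause was not tested. Of 2507 values of named genes under an alternative, 2462 kept direction and side of the threshold. Quantile normalization gave 22 higher and 24 lower members between the times. The share of all probe sets in that fit is not given here, so these counts cannot be set against it. Differences below the spread of 4 arrays a diet, or 2 by sex, could not be detected, and larger ones could be missed too. HNRNPAB differed by 0.28 between the high-fat and control diets, with a residual SD of 0.11, and did not pass.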
